A study of Bos taurus with 29 samples.

Results

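Skin from M4.1 lesions of bovine digital dermatitis was set against skin from M2 lesions, the acute ulcerated stage of the same disease. The members are 9 of the 29 libraries of the series, 4 labelled M4.1 and 5 labelled M2, and the genes that both deposited stage tables list. Those are 10964 of the 11386 genes in either table, and 9532 of them had enough counts to be tested. Skin of Holstein-Friesian dairy cattle was sampled with a punch, and its messenger RNA was sequenced with a kit that makes 1 fragment near the 3′ end of each transcript. M4.1 and M2 samples are both labelled as skin from a lesion site, and the 5 M0 samples used for orientation as control skin from above the interdigital cleft, taken after slaughter. The labels give no treatment, age, animal, farm or sampling day, and no label says that replicates were separate animals, so every p-value here measures the spread between these samples, which may be technical.

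Digital dermatitis is a contagious inflammation of the bovine foot in which spirochaetes of the genus Treponema invade the epidermis. An M2 lesion is a painful open ulcer, and an M4.1 lesion is a thickened chronic lesion in which a small active focus has reappeared. In ulcerated skin, keratinocytes at the wound edge switch from the differentiation keratins KRT1 and KRT10 to KRT6, secrete antimicrobial proteins, and release IL-1 and CXC chemokines that call in neutrophils. The comparison asks which genes set the reactivated lesion apart from the first acute one.

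Both groups carried the RNA of epidermis and dermis. KRT14, the keratin of basal keratinocytes, lay between 11946 and 22012 CPM (library-size-scaled counts, corrected for composition by the TMM method) in M4.1 and between 13377 and 22166 CPM in M2. COL1A1, the main collagen chain of fibroblasts, lay between 1172 and 2722 CPM in M4.1 and between 1762 and 2546 CPM in M2. Of 11 blood cell and platelet genes looked for, 0 were among the genes in both tables. The libraries held 3150403 to 5209761 counts in M4.1, 3455746 to 5403240 in M2 and 4350641 to 5338454 in M0 over the joined genes. In such bulk samples fewer cells of a type and less RNA per cell cannot be told apart.

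No gene differed between M4.1 and M2 at an adjusted p under 0.05. The robust quasi-likelihood test of edgeR called 0 of 9532 genes higher and 0 lower (0%), and the smallest adjusted p was 0.999. DESeq2 and limma-voom also called 0. At an unadjusted p under 0.05 edgeR had 254 genes (2.66%), of which 123 were higher in M4.1 (1.29%) and 131 lower (1.37%), against 246 genes with DESeq2 and 295 with limma-voom. Where no gene differs, an unadjusted threshold of 0.05 on average lets through a larger share than 2.66%, so these counts are no sign of a difference. The levels of the M4.1 and M2 libraries did not overlap for 52 genes that were higher in M4.1 (0.546%) and 53 that were lower (0.556%). With so few libraries some genes separate fully without any difference between the stages, so a lack of overlap in a single gene is description only. The median of all log2 fold changes, M4.1 over M2, was -0.00.

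A p above the threshold does not show that the stages are alike, so the 95% interval of each difference was examined. For 7351 genes (77.1%) the interval lay within 1 log2 unit of 0, which is a 2-fold difference in either direction. The median interval reached 0.49 log2 units to each side of its estimate. At the other end, the intervals of 292 genes (3.06%) reached past 2 log2 units, and these include many of the inflammatory, cornified and hair genes described below. The estimate itself was over 1 log2 unit for 99 genes (1.04%).

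**Figure D1:**
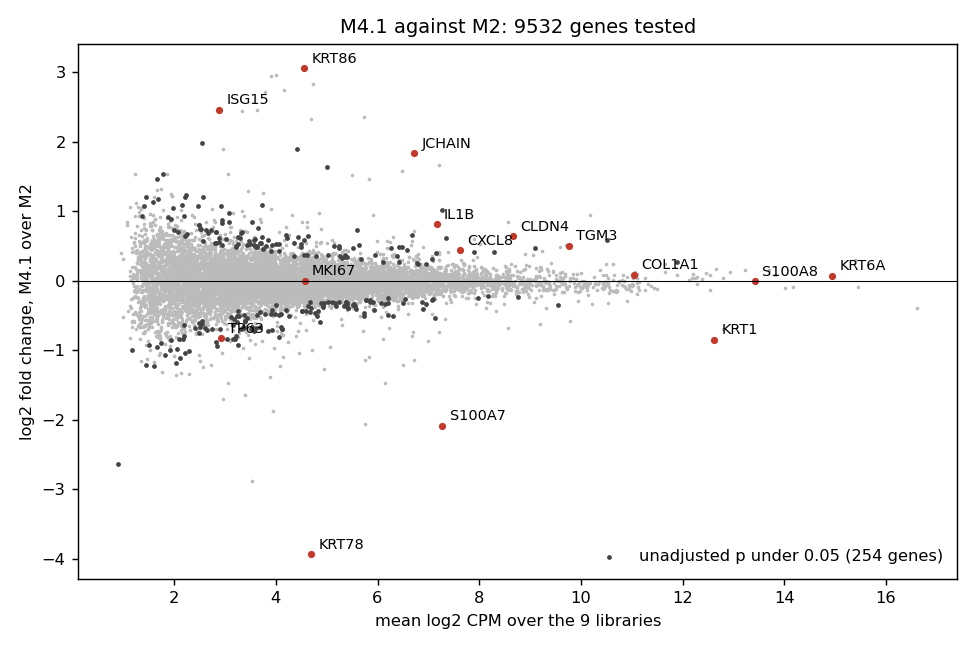
Log2 fold change of M4.1 over M2 (vertical) against mean log2 CPM (horizontal) for the 9532 genes tested, with the 254 genes at an unadjusted p under 0.05 in dark grey and 15 named genes in red. The cloud is centred on 0, and the far points, such as KRT86 at 3.06 and KRT78 at -3.94, are genes whose libraries vary widely within a stage.

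The whole profile of a library did not tell the stages apart either. The correlation of log2 CPM across genes, which are not independent replicates, was 0.915 to 0.965 between an M4.1 and an M2 library, 0.933 to 0.958 within M4.1 and 0.914 to 0.953 within M2. For 9 of 9 libraries the closest other library belonged to the other stage. M4.1 replicate 2 and M2 replicate 2 were the closest pair, at 0.965. Scaled together with M0, the correlations of the 9 lesion libraries with M0 libraries were 0.781 to 0.872. The common biological coefficient of variation was 0.256 in M4.1, 0.291 in M2 and 0.218 in M0.

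Genes of cornifying epidermis and of neutrophil attraction varied widely between lesion libraries inside both stages. The first principal component of the 9 libraries (26.4% of the variance) had KRT1, KRT10, KRT78 and S100A7, genes of the differentiated upper epidermis, at its high end. Hair and sebaceous genes such as KRTAP3-1, KRTAP1-1, MOGAT2 and KRT86 stood at the same end of this component. At its low end stood SLPI, an inhibitor of neutrophil elastase, the proteinase MMP1, IL1B, CXCL8, GRO1 and IL6. The M4.1 libraries lay at -8.05, 26.5, 2.28 and -29.9 on this component, and the M2 libraries at -27.7, 11.1, -12.5, -6.94 and 45.2. The M4.1 positions fall inside the M2 range except M4.1 replicate 4, which lies just below it. The second component (17.8%) had the sebaceous and hair genes ELOVL3, MOGAT2, KRT86 and KRT85 at its low end, and M4.1 spanned -29.4 to 24.5 on it while M2 spanned -25.2 to 22.6.

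**Figure D2:**
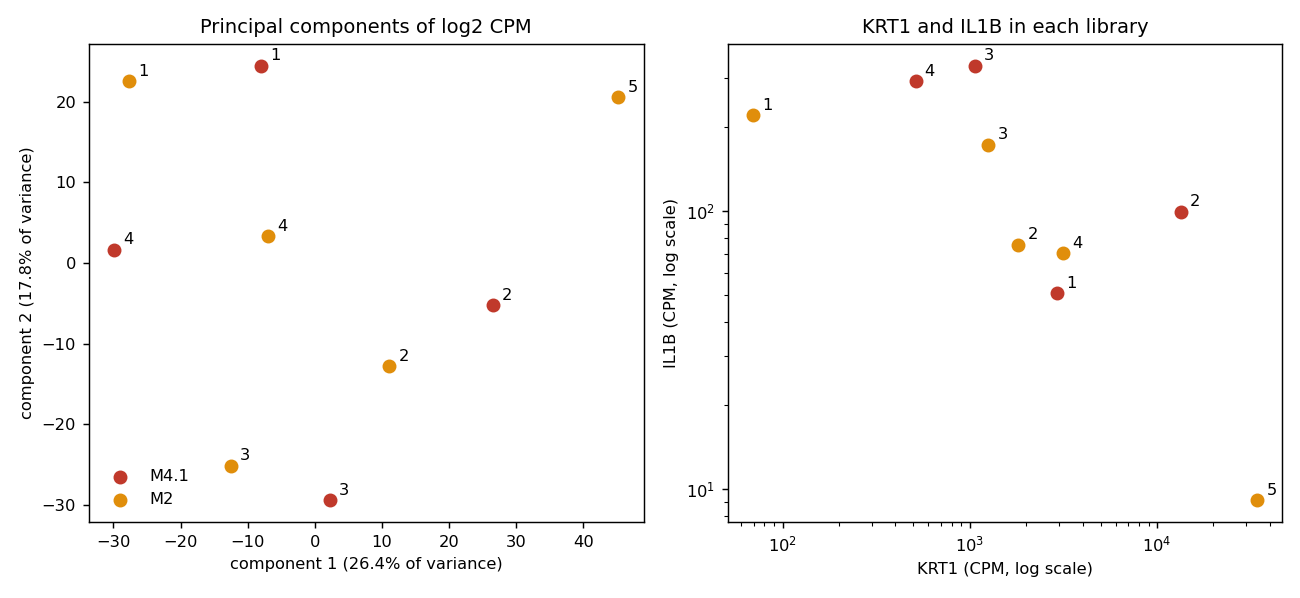
Left, the 9 lesion libraries on the first and second principal components of log2 CPM, numbered by replicate, M4.1 in red and M2 in orange. Right, IL1B against KRT1 in the same libraries (both CPM, log scales): M2 replicate 5 has the most KRT1 (34269 CPM) and the least IL1B (9.09 CPM), and both stages are spread over the plot.

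The keratins of the upper epidermis varied widely within both stages. KRT1 (ENSBTAG00000046089), the suprabasal keratin of intact epidermis, had 2920, 13436, 1068 and 513 CPM in M4.1, against 69.3, 1814, 1257, 3159 and 34269 CPM in M2. The lowest and the highest library were both M2, and M2 replicate 5 was above control skin, where KRT1 was between 13674 and 23953 CPM. The log2 fold change was -0.85 with a 95% interval of -4.80 to 3.1, and without M2 replicate 5 it was 1.51. KRT10, the partner of KRT1 in the filament, had 4074, 14712, 2621 and 582 CPM in M4.1, against 217, 1834, 1579, 3013 and 37911 CPM in M2. The order of the libraries was nearly that of KRT1, and the log2 fold change was -0.69 (-4.31 to 2.93), or 1.72 without M2 replicate 5.

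KRT78, a keratin of the upper epidermis, and S100A7, the antimicrobial protein psoriasin, depended on the same library. KRT78 had 1.05, 6.03, 3.75 and 0.235 CPM in M4.1, against 0.644, 5.31, 1.59, 2.81 and 223 CPM in M2. Apart from M2 replicate 5 the stages overlapped completely, and the log2 fold change of -3.94 (-8.79 to 0.91) became 0.13 without that library. S100A7 had 2.1, 140, 80.0 and 2.59 CPM in M4.1, against 1.93, 57.1, 74.0, 9.84 and 1078 CPM in M2, all below the 2497 to 6438 CPM of M0. Its log2 fold change was -2.09 (-6.63 to 2.45), and 0.67 without M2 replicate 5. Over the 21 tested cornified envelope genes, which build the protein shell of dead surface cells, 5 lay above 0 and 16 below, with a median of -0.10 beside -0.00 over all genes, and 0.36 without M2 replicate 5. Their summed level was 7309 to 42869 CPM in M4.1 and 7748 to 92443 CPM in M2. The part that this difference between libraries has in other results was not tested.

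TGM3 (ENSBTAG00000001785) had the smallest p of the cornified list. It encodes a transglutaminase that cross-links envelope proteins, and it had 1038, 1246, 985 and 1044 CPM in M4.1, against 734, 771, 608, 877 and 807 CPM in M2. Every M4.1 library was above every M2 library. The log2 fold change was 0.50 ± 0.12 (SE), with an interval of 0.25 to 0.76, the second smallest p of all genes, and it was 0.43 to 0.56 when any single library was left out. TGM3 was named for its small p in these same libraries. Its lack of overlap and its narrow range on leaving out libraries go with that choice and are no separate support. In M0 the gene had 28.1 ± 7.85 CPM (SD, n = 5).

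The keratins of wounded epidermis were high in both stages, with narrow limits on the difference for some and wide limits for others. KRT6A, which keratinocytes switch on at a wound edge, had 39306, 43993, 25015 and 25782 CPM in M4.1, against 27980, 34585, 20781, 30816 and 44881 CPM in M2. The stages overlapped, and the log2 fold change was 0.07 (-0.43 to 0.58). In M0 it had 1713 ± 697 CPM (SD, n = 5). Its near copy KRT6B, whose reads may be shared with it, had 49619 ± 26231 CPM in M4.1 (n = 4), 40155 ± 12061 in M2 and 177 ± 132 in M0 (SD, n = 5 each), a log2 fold change of M4.1 over M2 of 0.30 (-0.61 to 1.21). The gap junction protein GJB2, which is also raised in healing epidermis, had 2746 ± 428 CPM in M4.1 and 2957 ± 793 CPM in M2, a log2 fold change of -0.11 (-0.53 to 0.32).

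SFN, the 14-3-3 sigma protein of stratified epithelium, had the smallest p of the wound keratinocyte list. It had 4513, 4514, 3969 and 4319 CPM in M4.1, against 3560, 4031, 3300, 3752 and 3239 CPM in M2. Only M4.1 replicate 3 fell within the M2 range, and the log2 fold change was 0.27 (0.06 to 0.49). Of the 19 wound keratinocyte genes tested, 8 lay above 0 and 11 below, with a median of -0.02 and a range from -0.45 to 0.31. Among 15 basal keratinocyte and basement membrane genes 3 lay above 0 and 12 below (median -0.12). The lowest of them was TP63, the master transcription factor of basal keratinocytes, with 3.5, 7.53, 4.74 and 4.47 CPM in M4.1 against 9.87, 11, 8.75, 8.43 and 7.07 CPM in M2. The stages overlapped only in M4.1 replicate 2, and the log2 fold change was -0.82 (-1.4 to -0.25). KRT14 of the same layer gave -0.10 (-0.53 to 0.32).

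The chemokines that attract neutrophils were high in both stages, and each of the 7 tested genes of that list lay above 0. CXCL8 (ENSBTAG00000019716), interleukin 8, had 100, 136, 354 and 354 CPM in M4.1, against 373, 113, 187, 182 and 16.2 CPM in M2. The highest and the lowest of the 9 libraries were M2 samples. The log2 fold change was 0.44 (-1.41 to 2.29), and in M0 the highest library had 0.794 CPM. CXCL2 had 218, 328, 491 and 256 CPM in M4.1, against 471, 113, 337, 174 and 22.6 CPM in M2 (log2 fold change 0.53, -1.23 to 2.29). GRO1, a close relative of CXCL2 with which it may share reads, had 195, 228, 343 and 440 CPM in M4.1, against 354, 173, 311, 136 and 16.5 CPM in M2 (log2 fold change 0.60, -1.11 to 2.31). M2 replicate 5, the library rich in KRT1, was the lowest of the 9 for all of CXCL8, CXCL2 and GRO1.

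The distance between the stages in this list changed with several single libraries, M2 replicate 5 among them. The median log2 fold change of the 7 genes was 0.53 with all libraries, 0.29 without M2 replicate 5, 0.36 without M4.1 replicate 4 and 0.07 without both, where 5 of 7 lay above 0. It was 0.91 without M2 replicate 1. The members are known to be induced together, so their shared sign does not count as 7 separate observations. CSF3, the growth factor of neutrophil production, had 2.1, 4.95, 8.50 and 9.87 CPM in M4.1, against 4.29, 2.16, 7.69, 2.34 and 0 CPM in M2 (log2 fold change 0.94, -0.54 to 2.43). Its receptor CSF3R, carried by neutrophils, had 5.94, 9.26, 21.9 and 10.3 CPM in M4.1, against 4.08, 4.33, 14, 6.79 and 1.01 CPM in M2 (0.98, -0.31 to 2.27). For both genes the stages overlapped, and within M2 replicate 3 was highest and replicate 5 lowest.

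IL1B, IL1A and IL6 were lowest in M2 replicate 5 among the M2 libraries, whereas IL36G and IL1RN were not. IL1B, the secreted pro-inflammatory cytokine of myeloid cells, had 50.7, 99.2, 333 and 293 CPM in M4.1, against 221, 75.6, 173, 70.3 and 9.09 CPM in M2. M4.1 replicates 3 and 4 were the highest of the 9 libraries, M4.1 replicate 1 was below all M2 libraries but replicate 5, and the log2 fold change was 0.82 (-1.25 to 2.89). IL1A, released by damaged keratinocytes, had 94.2 ± 36.4 CPM in M4.1 (n = 4) and 72.0 ± 38.1 CPM in M2 (SD, n = 5), a log2 fold change of 0.38 (-0.61 to 1.37). IL6 had 41.6, 23.2, 117 and 137 CPM in M4.1, against 102, 43.7, 83.5, 29 and 8.76 CPM in M2 (0.57, -1.24 to 2.37). IL36G, a cytokine made by stressed epidermis, ran differently, with 22.4, 61.3, 22.1 and 5.64 CPM in M4.1 against 4.08, 14.2, 2.65, 31.2 and 108 CPM in M2. It was highest in M2 replicate 5, the library lowest in IL1B, and its log2 fold change was -0.16 (-2.83 to 2.51). IL1RN, the antagonist that blocks the IL-1 receptor, had 371, 590, 842 and 726 CPM in M4.1, against 402, 383, 506, 582 and 567 CPM in M2 (0.37, -0.12 to 0.86), and M2 replicate 5 was among the higher M2 libraries.

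PTGS2, the inducible enzyme of prostaglandin synthesis, had 746, 465, 710 and 994 CPM in M4.1, against 847, 490, 810, 386 and 165 CPM in M2. The stages overlapped over most of their range, and the log2 fold change was 0.43 (-0.65 to 1.51). In M0 the highest library had 3.77 CPM. NFKBIZ, a co-activator that IL-17 and IL-1 switch on in keratinocytes, had 123, 207, 158 and 190 CPM in M4.1, against 109, 114, 153, 149 and 119 CPM in M2. M4.1 replicate 1 lay among the M2 libraries and the other 3 above them, with a log2 fold change of 0.40 (0.05 to 0.75). Of the 21 tested genes of the IL-17 list it alone had an unadjusted edgeR p under 0.05, a share near the 2.66% of all genes, and the list median was 0.14. CCL20, a chemokine that attracts T cells, gave 0.22 (-0.82 to 1.26). CCL11, which attracts eosinophils, had 298 ± 183 CPM in M4.1 (n = 4) and 346 ± 143 CPM in M2 (SD, n = 5), a log2 fold change of -0.22 (-1.33 to 0.89).

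**Figure D3:**
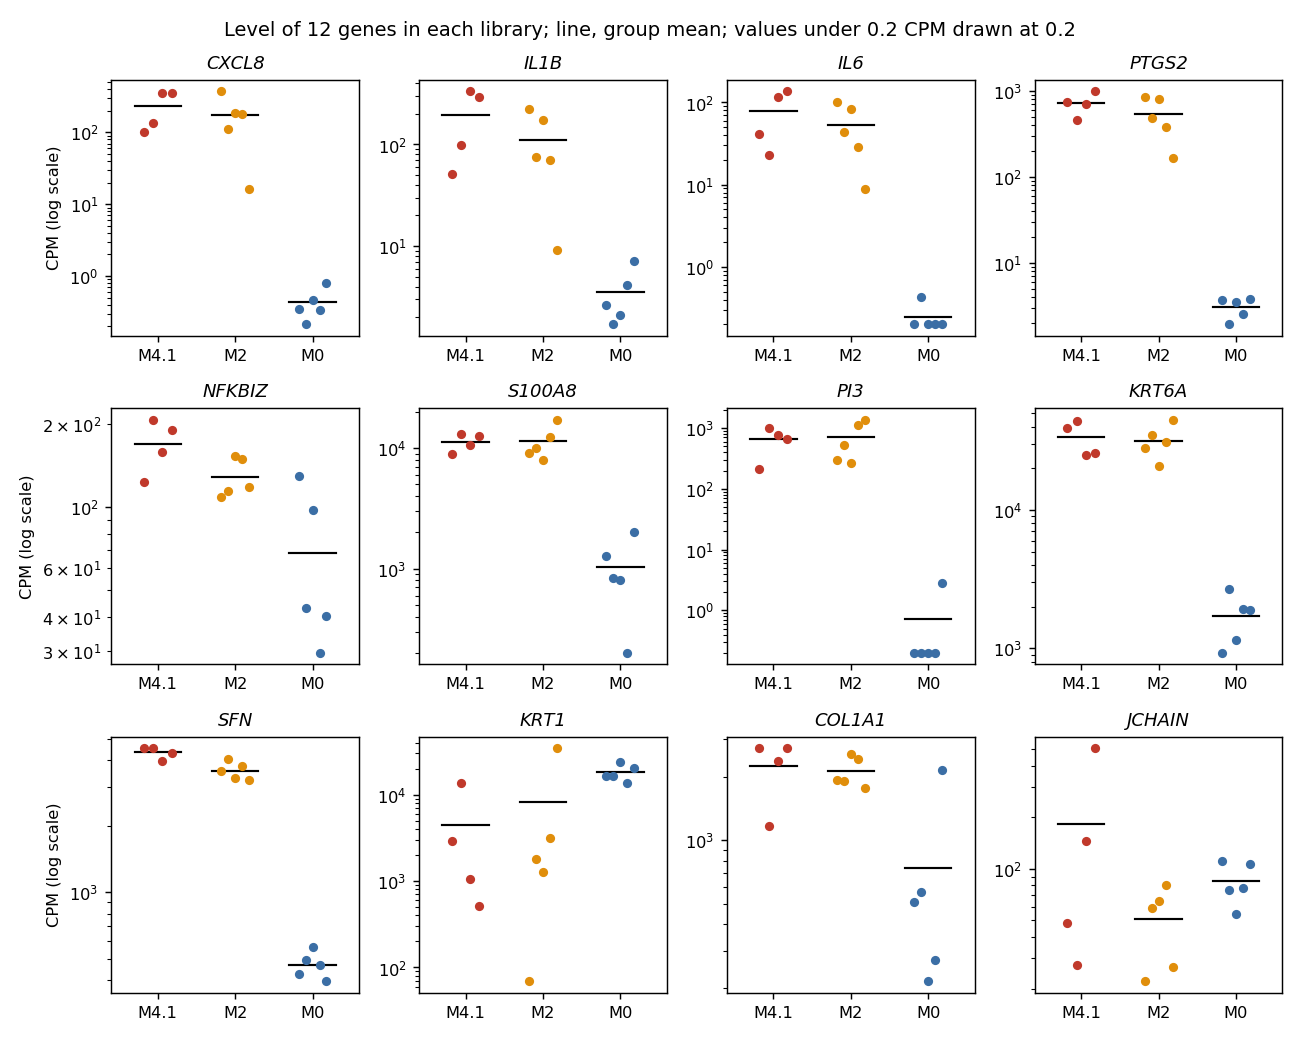
Level of 12 genes (CPM, log scale) in each library of M4.1 (red), M2 (orange) and M0 (blue), with the group mean as a line. The chemokine, cytokine and PTGS2 panels show both lesion stages overlapping each other and far above M0, except for IL1B in M2 replicate 5. That library had 9.09 CPM of IL1B, against up to 7.15 CPM in M0. KRT1 lies below the M0 range in every M4.1 library and in every M2 library except replicate 5, which lies above it.

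The calgranulins S100A8 and S100A12 were abundant in both stages, unlike S100A7 above. S100A8 (ENSBTAG00000012640), a subunit of calprotectin made by neutrophils and by inflamed keratinocytes, had 8903, 13112, 10657 and 12531 CPM in M4.1, against 9126, 10063, 7914, 12430 and 17094 CPM in M2. The M4.1 values lay inside the M2 range, and the log2 fold change was -0.00, with an interval that in linear terms ran from 0.726-fold to 1.37-fold. S100A12 had 15369 ± 1265 CPM in M4.1 (n = 4) and 14546 ± 3246 CPM in M2 (SD, n = 5), a log2 fold change of 0.08 (-0.24 to 0.40). PI3, the elastase inhibitor elafin, had 213, 989, 771 and 651 CPM in M4.1, against 296, 521, 266, 1102 and 1365 CPM in M2 (-0.11, -1.62 to 1.4). The beta-defensin TAP, whose reads may be shared with related defensins, had 262, 462, 144 and 115 CPM in M4.1, against 41.2, 77.3, 196, 1005 and 291 CPM in M2 (-0.39, -2.65 to 1.86). Of 13 antimicrobial genes tested 4 lay above 0 and 9 below, and the median of -0.24 became 0.20 without M2 replicate 5.

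Interferon response genes held 6 of 24 tested members with an unadjusted p under 0.05 and higher in M4.1, and 0 lower, against 1.29% and 1.37% of all genes. IRF7 (ENSBTAG00000047680), the transcription factor that amplifies type I interferon, had 10.1, 12.9, 9.09 and 7.76 CPM in M4.1, against 7.08, 6.10, 5.30, 3.98 and 4.38 CPM in M2. Every M4.1 library was above every M2 library, and the log2 fold change was 0.88 (0.33 to 1.42). IRF7 was also named for its small p, so its lack of overlap is no separate support. IRF9, which carries the interferon signal to the nucleus, had 38.4, 29.5, 30.6 and 19 CPM in M4.1, against 17.4, 18.1, 18, 27.2 and 16.2 CPM in M2 (0.59, 0.13 to 1.05). M4.1 replicate 4 lay within the M2 range because M2 replicate 4 stood above the other M2 libraries.

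Other members of the list were uneven within M4.1 and lay on both sides of 0. ISG15, a ubiquitin-like modifier, had 10.1, 39.2, 0.593 and 2.35 CPM in M4.1, against 2.36, 1.38, 1.06, 3.51 and 3.70 CPM in M2. M4.1 replicates 1 and 2 were above all M2 libraries while replicate 3 was below all of them. The log2 fold change was 2.46 (0.05 to 4.88) with all libraries and 0.77 without M4.1 replicate 2. OAS1Y, an enzyme that activates RNA decay, had 28, 95.1, 10.3 and 11 CPM in M4.1, against 10.9, 4.92, 3.71, 16.6 and 12.8 CPM in M2. The 2 highest libraries were again M4.1 replicates 1 and 2, and the log2 fold change was 1.89 (0.07 to 3.72), or 0.72 without M4.1 replicate 2. MX1, an antiviral GTPase, had its highest level, 41.5 CPM, in M4.1 replicate 2 and gave 1.29 (-0.43 to 3.01). The lowest of the 8 members below 0 was IDO1, an enzyme that breaks down tryptophan, at -1.71 (-4.57 to 1.15), named after its value was seen. The count of 6 members was 1 with the replicate number as a block, 1 with all 29 libraries in the fit, and 2 without M2 replicate 2 or without M2 replicate 5. The median over the 24 genes was 0.23, and 16 of them lay above 0.

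Of 21 complement genes tested 0 were called. Their median was 0.24, 15 lay above 0, and 2 had an unadjusted edgeR p under 0.05 and were higher in M4.1, against 1.29% of all genes. C7, a part of the membrane attack complex, had 19.2, 14.6, 11.1 and 30.3 CPM in M4.1, against 4.5, 5.51, 17.5, 5.15 and 11.8 CPM in M2. M2 replicates 3 and 5 lay among the M4.1 libraries, and the log2 fold change was 1.09 (0.12 to 2.07). C4A, of the classical pathway, had 5.94, 6.03, 6.13 and 7.29 CPM in M4.1, against 0.858, 1.57, 7.95, 2.34 and 1.01 CPM in M2. All M2 libraries but replicate 3 were below M4.1, and the log2 fold change of 1.21 (0.05 to 2.37) was 2.1 without that library.

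Among tested markers of neutrophils, macrophages, dendritic, T, NK, B and plasma cells 0 had an unadjusted edgeR p under 0.05, which is near the 2.66% of all genes for lists of this size. JCHAIN, the joining chain of antibodies from plasma cells, had 48.6, 27.3, 145 and 504 CPM in M4.1, against 22.1, 59.4, 64.7, 80.6 and 26.6 CPM in M2. M4.1 replicates 3 and 4 were above all M2 libraries and the other 2 were not, so that the log2 fold change was 1.83 (-0.25 to 3.91) with all libraries and 0.54 without M4.1 replicate 4. Over 7 tested B cell and plasma cell genes the median was 0.21. For 12 neutrophil markers the median was 0.04, for 20 macrophage and monocyte markers -0.13, for 10 T and NK cell markers 0.15 and for 6 class II antigen presentation genes 0.01. The summed level of the neutrophil list, most of it S100 proteins that keratinocytes also make, was 24862 to 32818 CPM in M4.1 and 22281 to 41501 CPM in M2. The 4 dendritic and Langerhans cell markers tested had a median of -0.62 and summed to 19 to 76 CPM in M4.1, 22 to 69 CPM in M2 and 364 to 510 CPM in M0.

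Hair follicle and sebaceous gland genes were low and patchy in both stages. KRT86, a hair shaft keratin, had 0.350, 51.9, 132 and 0 CPM in M4.1, against 0, 22.6, 0.795, 0.234 and 2.69 CPM in M2. M4.1 replicates 2 and 3 and M2 replicate 2 carried nearly all of it, whereas M0 had 982 ± 334 CPM (SD, n = 5). The log2 fold change of 3.06 had an interval from -1.06 to 7.17. ELOVL3, which lengthens fatty acids in sebaceous glands, had 2.45, 86.5, 147 and 1.88 CPM in M4.1, against 0.215, 209, 74.5, 8.90 and 16.2 CPM in M2 (-0.05, -3.81 to 3.71). Of the 38 genes of this list found in both tables, 17 were tested, and their spread within a stage was the largest of the lists, a median SD of 1.91 log2 units against 0.32 over all genes. The list median was 0.23, or 2.32 without M4.1 replicate 4.

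In the sweat gland and simple epithelium list, CLDN4 (ENSBTAG00000026278) had the smallest p of all 9532 genes. It encodes a claudin of tight junctions, and had 535, 576, 421 and 564 CPM in M4.1, against 346, 366, 399, 302 and 262 CPM in M2. Every M4.1 library was above every M2 library, and M0 had 265 ± 40.4 CPM (SD, n = 5). The log2 fold change was 0.64 ± 0.14 (SE), in linear terms 1.27-fold to 1.92-fold, with an unadjusted edgeR p of 0.000448 and an adjusted p of 0.999. Leaving out single libraries gave 0.57 to 0.73. CLDN4 was likewise named for its p in these libraries, so neither this range nor the lack of overlap is separate support. The 8 tested genes of the list had a median of 0.22.

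The other genes with the smallest p are given as values, since choosing them by p makes their stages look apart. Higher in M4.1 were PLPP3, which degrades lysophosphatidic acid at the cell surface (0.48, 0.18 to 0.79), and LY6D, a surface protein of keratinocytes (1.02, 0.40 to 1.64). LY6D had 206, 160, 342 and 172 CPM in M4.1, against 165, 79.5, 117, 99.6 and 81.5 CPM in M2. Its M4.1 replicate 2 lay just below the highest M2 library. TINAGL1, a protein of the basement membrane, gave 0.61 (0.22 to 1.01), IFRD2 0.50 (0.18 to 0.82) and ADD3, an adducin of the membrane skeleton, 0.49 (0.17 to 0.81).

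Lower in M4.1 were ZNF24, a zinc finger transcription factor (-0.50, -0.78 to -0.22), and NDUFA2, a subunit of respiratory complex I (-0.54, -0.84 to -0.23). RITA1, which exports the Notch mediator RBPJ from the nucleus, had 6.99, 7.32, 5.53 and 6.11 CPM in M4.1, against 14.4, 11.6, 10.1, 9.84 and 10.1 CPM in M2, without overlap (-0.80, -1.26 to -0.33). The M0 libraries had 5.10 to 5.96 CPM. The kinase NEK3 gave -0.84 (-1.36 to -0.32), RPRD2, which binds RNA polymerase II, -0.83 (-1.37 to -0.30), the ERK phosphatase DUSP7 -0.40 (-0.66 to -0.14), the Cdc42 activator DOCK11 -0.73 (-1.20 to -0.25) and the actin-capping protein TWF1 -0.70 (-1.17 to -0.23). Over the 72 nuclear-encoded respiratory chain genes tested, NDUFA2 among them, 38 lay above 0 and 34 below.

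**Figure D4:**
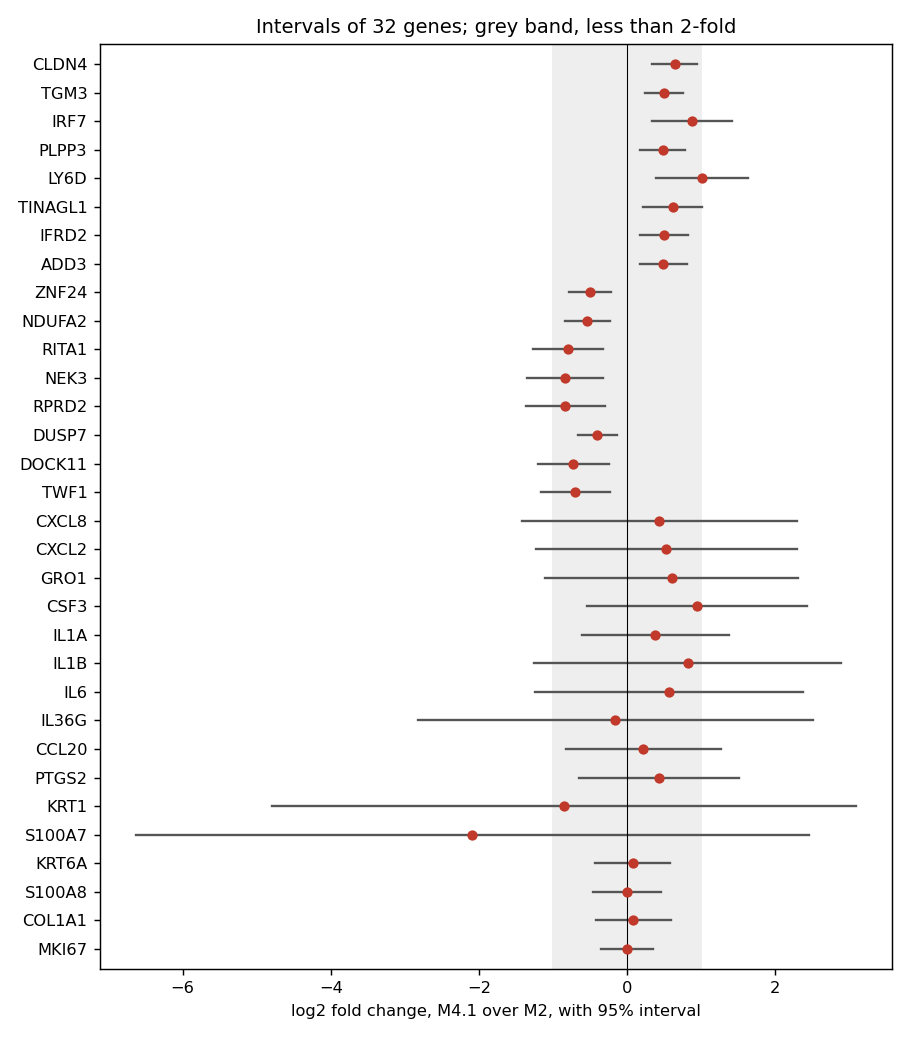
Log2 fold change of M4.1 over M2 (points) with its 95% interval (lines) for 32 genes, the grey band marking differences under 2-fold. The top 16 genes, chosen by p, have short intervals that leave 0, while the intervals of the chemokines, the cytokines, KRT1 and S100A7 cross 0 and most reach past the band.

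Genes of the dermis and of wound repair lay on both sides of 0. COL1A1 had 2722, 1172, 2376 and 2719 CPM in M4.1, against 1936, 1903, 2546, 2427 and 1762 CPM in M2. M4.1 replicate 2 was the lowest of the 9 and M4.1 replicates 1 and 4 the highest, with a log2 fold change of 0.08 (-0.42 to 0.59). COL3A1, the collagen of young scar, gave 0.09 (-0.33 to 0.51). Of 28 collagen and collagen-processing genes, 14 lay above 0 and 14 below (median -0.05), and 20 (71.4%) had their interval within 1 log2 unit, against 77.1% of all genes. POSTN, periostin of the wound matrix, had 9.79, 15.1, 17 and 9.87 CPM in M4.1, against 29.8, 19.9, 15.9, 25.3 and 14.5 CPM in M2 and 45.1 ± 7.40 CPM in M0 (SD, n = 5). M2 replicates 3 and 5 overlapped with M4.1, and the log2 fold change was -0.70 (-1.25 to -0.15). FGF7, the fibroblast growth factor for keratinocytes, had 47.2, 16.1, 39.9 and 28.2 CPM in M4.1, against 12.7, 7.48, 20.4, 23.7 and 28 CPM in M2 (0.84, -0.06 to 1.74).

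Both matrix proteinases described here had wide limits. MMP1, a collagenase, had 37.1, 25.6, 159 and 114 CPM in M4.1, against 85.8, 54.1, 55.1, 20.8 and 1.68 CPM in M2 (0.94, -1.18 to 3.06). MMP9, the gelatinase of neutrophils and of migrating keratinocytes, had 180 ± 97.0 CPM in M4.1 (n = 4), 178 ± 109 CPM in M2 and 1.60 ± 1.38 CPM in M0 (SD, n = 5 each), a log2 fold change of M4.1 over M2 of 0.01 (-1.34 to 1.36). Endothelial markers had a median of 0.06 over 21 genes, and 15 of those (71.4%) had their interval within 1 log2 unit, against 77.1% of all genes.

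Several lists of growth and metabolism genes were tightly bounded. MKI67, a proliferation marker, was named after its values were seen. It had 24.8, 22.6, 24.9 and 24.2 CPM in M4.1, against 25.1, 22.2, 26.5, 28.6 and 17.5 CPM in M2. The M4.1 values lay inside the M2 range, and the log2 fold change was 0.00 (-0.35 to 0.35). Of 47 cell cycle genes, 12 lay above 0 and 35 below with a median of -0.11, and 43 had their interval within 1 log2 unit. At an unadjusted edgeR p under 0.05, 2 were lower in M4.1 and 0 higher, against 1.37% and 1.29% of all genes. Those 2 were CENPA (-0.39, -0.75 to -0.03) and CCND1 (-0.58, -1.15 to -0.004). The interval was within 1 log2 unit for 22 of 22 cholesterol genes, 75 of 75 cytosolic ribosomal protein genes, 72 of 72 respiratory chain genes and 13 of 13 mitochondrially encoded genes, against 77.1% of all genes. It was within that limit for 0 of 7 neutrophil chemokine genes, 2 of 17 hair and sebaceous genes and 7 of 21 cornified envelope genes. Hypoxia and glycolysis genes, at 28 of 36 (77.8%), were near the share of all genes. Growth factors and receptors of wound repair, at 24 of 34 (70.6%), were below it. FABP4, a fatty acid carrier, had 8660, 9540, 3907 and 3441 CPM in M4.1, against 5781, 6167, 4319, 5073 and 8673 CPM in M2 (0.09, -0.70 to 0.87), and 224 ± 202 CPM in M0 (SD, n = 5).

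**Figure D5:**
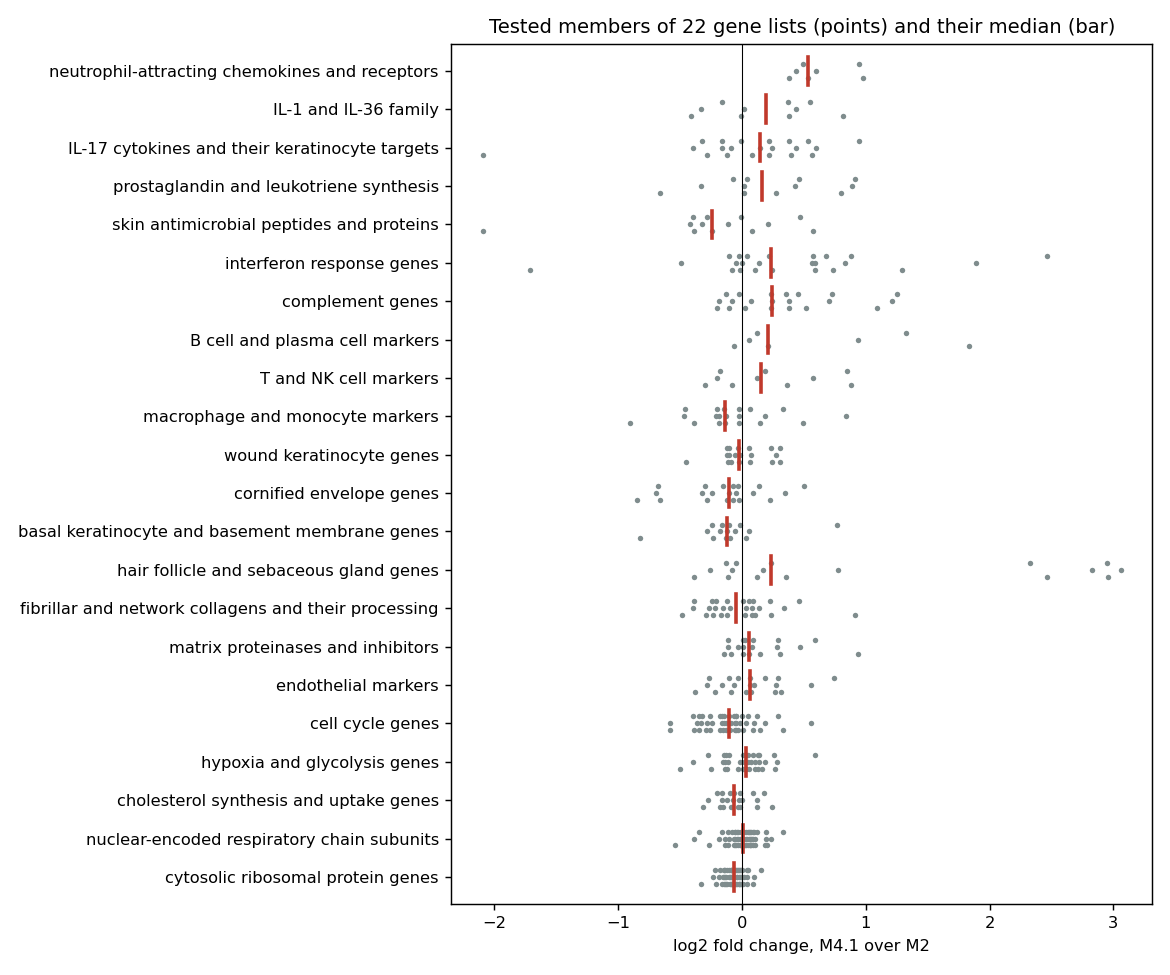
Log2 fold change of M4.1 over M2 for the tested members of 22 gene lists (points) with the list median (red bars). Ribosomal and respiratory chain genes sit close to 0, while the hair and sebaceous list and the interferon list, each with a median of 0.23, are spread over several log2 units.

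Genes listed in only 1 of the tables have no M4.1 against M2 comparison, because the table of the other stage holds no counts for them. The M4.1 table alone lists 339 genes and the M2 table alone 83. The tables differ in their entry rule, at least 4 libraries over 1 CPM for M4.1 and at least 5 for M2, and 203 of the 339 reached exactly 4. IL17F, the epithelial IL-17 cytokine, is listed in the M4.1 table and not in the M2 table, with 3, 6, 38 and 17 counts in M4.1 and 8, 0, 1, 0 and 2 counts in M0. The neutrophil receptor CXCR1 had 13, 60, 109 and 63 counts in M4.1 and 5, 4, 0, 4 and 2 in M0, and the plasma cell gene MZB1 had 3, 7, 30 and 123 counts in M4.1 and 4, 1, 2, 4 and 7 in M0. IL17F and MZB1 are among the genes that reached exactly 4 libraries. Their absence from the M2 table therefore does not show a lower level in M2. Of the genes in the M4.1 table alone, 91 had a deposited adjusted p under 0.05 against M0, 29 higher than M0 and 62 lower. The M2 table alone lists FOSL1, an AP-1 subunit of migrating keratinocytes, with 34, 38, 14, 15 and 17 counts in M2 and 0, 4, 3, 2 and 3 in M0. It also alone lists the collagenase MMP13, with 38, 32, 31, 11 and 4 counts in M2 and 2, 0, 0, 0 and 0 in M0. FOSL1 and MMP13 each had 5 libraries over 1 CPM, the least that the rule allows, and all of them were M2 libraries. Both genes thus entered the table through M2 alone, so their level above M0 is in part a product of the rule.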

How the data were processed

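Per the submitters' processing notes, the tools were cutadapt 2.8, FastQC 0.11.7, RSEM 1.3.1, STAR and edgeR, with the genome build ARS-UCD1.2. The deposited tables hold whole-number counts per gene and library, a normalized signal in CPM and adjusted p-values against M0, per the file headers. Only the counts entered the results below. Whether counting used the strand is not given in the sources used here, so antisense and overlapping genes cannot be told apart. Near-identical genes may share reads.

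The M2 and M4.1 count columns were joined on gene identifier. Genes were filtered with filterByExpr, TMM factors computed and M4.1 tested against M2 with the robust quasi-likelihood fit of edgeR 4.0.16 (R 4.3.3), adjusted over all 9532 genes by the method of Benjamini and Hochberg. Intervals (95%) and standard errors are approximate, from the F value. Levels in CPM were scaled by TMM over the 14 M4.1, M2 and M0 libraries. Principal components used log2 CPM with a prior count of 2. DESeq2 1.42.0 and limma 3.58.1 were alternatives, beside RLE factors, other filters, other sets of libraries, a replicate block and leaving out libraries. The fit was also run on simulated counts with known changes, drawn independently for each library. Those counts lack the variation that genes share between these libraries, so they do not show what size of change the fit would find here. Figures used matplotlib 3.10.9.

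Members, lists and tests were chosen with earlier results of these data known. The naming rule covered the 8 genes with the smallest p in each direction and 14 cytokine and mediator genes as far as tested. It also covered up to 2 members with the smallest p in each of 43 lists, but not all of these are printed above. Left out at an unadjusted edgeR p under 0.05 were TRIB3 (log2 fold change 1.08) and RNASE4 (0.47), higher in M4.1. Lower ones left out were TNFAIP8 (-0.41), ADAMTS2 (-0.48) and ND4L (-0.32). Named after their values were seen were KRT1, KRT10, KRT78, KRT14, KRT6A, KRT6B, KRT86, ELOVL3, GJB2, S100A8, S100A12, PI3, TAP, CCL11, ISG15, OAS1Y, MX1, IDO1, SLPI, JSP.1, COL1A1, COL3A1, MMP9, MKI67, FABP4 and the genes listed in 1 table. Libraries with the same replicate number deviated together, with correlations of 0.122, 0.247, 0.229 and 0.190 for numbers 1 to 4. The labels do not say what a number marks, so this pairing comes from the data. M4.1 replicates 2 and 4 deviated more like M2 replicates 5 and 1, with correlations of 0.342 and 0.272.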

Additional observations from a re-analysis of the deposited data

Results flagged for a closer look

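Single libraries far from the rest of their group were looked for in 167 groups of 4 or 5 values on the log2 scale. The search found 8, a share near the 5% of groups that chance gives. COL1A1 had 1172 CPM in M4.1 replicate 2, the lowest of 4, against 2376 to 2722 CPM in the other M4.1 libraries. COL3A1 had 954 CPM in the same library, against 1668 to 1811 CPM in the others. JSP.1, a class I histocompatibility gene, had 1.18 CPM in M4.1 replicate 4, against 493 to 935 CPM in the other M4.1 libraries. C4A had 7.29 CPM in M4.1 replicate 4, the highest of 4, against 5.94 to 6.13 CPM. SLPI had 1.35 CPM in M2 replicate 5, against 53.6 to 94.4 CPM in the other M2 libraries. IRF9 had 27.2 CPM in M2 replicate 4, against 16.2 to 18.1 CPM in the others. PI3 had 2.78 CPM in M0 replicate 5 and no counts in the other M0 libraries. CXCL2 had 1.75 CPM in M0 replicate 1, against 0.232 to 0.425 CPM in the others.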

How the results depend on the processing

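The count of 0 genes called, in either direction and in each gene list, was the same in all 19 alternatives. The smallest adjusted p over them was 0.265, and 177 to 351 genes had an unadjusted p under 0.05, with 351 under the replicate block, which also called 0 and has no partner for M2 replicate 5. The number of genes with an interval within 1 log2 unit ran from 6650 to 7433 over the 18 alternatives that give an interval, beside 7351. The median log2 fold change ran from -0.01 to 0.00. Of 128 named genes 98 kept the sign of their difference throughout, and of 42 list medians 13 did. With the replicate block KRT1 was at 1.33, KRT78 at 0.03, CXCL8 at 0.12 and JCHAIN at 1.01 on the log2 scale. Single libraries decided the values of KRT1, KRT10, KRT78, S100A7, ISG15, OAS1Y, C4A and JCHAIN, as given with each gene, and the cause was not tested. The 4 and 5 libraries limit the precision, and each printed interval gives the range of differences compatible with them.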

Other observations

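JSP.1, a class I histocompatibility gene chosen after its values were seen, had 493, 935, 521 and 1.18 CPM in M4.1, against 373, 332, 420, 917 and 555 CPM in M2 and 646, 305, 148, 733 and 762 CPM in M0. A single M4.1 library lacked nearly all of it, and the log2 fold change was -0.09 (-2.72 to 2.54). SLPI, an inhibitor of neutrophil elastase, had 15.7, 10.5, 159 and 181 CPM in M4.1, against 75.7, 82.1, 94.4, 53.6 and 1.35 CPM in M2. M4.1 replicates 3 and 4 were above all M2 libraries, and M4.1 replicates 1 and 2 were below all of them but M2 replicate 5.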
